A study of Mus musculus with 4 samples.

Results

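The genes described here are 7 CXC chemokines, Cxcl1, Cxcl2, Cxcl5, Cxcl10, Cxcl12, Cxcl14 and Cxcl16, chosen by their symbols in the deposited gene table, and they are 7 of its 30360 genes. All 7 were in the table. They were followed in single cells of mouse colonic organoids across every deposited cell class and all 4 libraries. Organoids here are cultures grown in Matrigel from minced pieces of distal colon, and the question behind the comparisons is how loss of TNF receptor 2 and exposure to tumor necrosis factor (TNF) change the cells of such a culture.

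The libraries came from wildtype and Tnfr2-/- mice aged 16 weeks per the labels, with 1 library in each of 4 groups, since each genotype was grown untreated and with TNF. Per the study's methods, Tnfr2-/- is a whole-body null allele of Tnfrsf1b, so epithelium and mesenchyme both carried it. Both TNF groups received 20 ng/ml after passage 5, starting on day 1 and ending on day 6. The untreated groups were also called vehicle in the labels. All cultures were dissociated with TrypLE on day 7, cells binding Annexin V, a stain for dying cells, were removed, and 3′ libraries were made on the 10x Chromium platform. Because each group had 1 library, no test between groups was possible, and every interval below covers counting error only and not the spread between cultures or mice.

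CXC chemokines are small secreted proteins that bind receptors on leukocytes and guide their movement. In the gut, Cxcl1, Cxcl2 and Cxcl5 bind Cxcr2 and draw neutrophils, Cxcl10 is an interferon-induced ligand of Cxcr3 on T cells, and Cxcl12, a product of stromal cells, binds Cxcr4 and Ackr3. Cxcl16 is made as a membrane protein that binds Cxcr6 and can be shed by the proteases Adam10 and Adam17, and Cxcl14 is a chemokine of epithelia and stroma. TNF acts through Tnfrsf1a and Tnfrsf1b, and NF-kB, which it activates, is known to drive transcription of Cxcl1, Cxcl2 and Cxcl10.

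On GRCm38, Cxcl1 (ENSMUSG00000029380) lies at chr5:90891241-90893115, Cxcl2 (ENSMUSG00000058427) at chr5:90903871-90905938 and Cxcl5 (ENSMUSG00000029371) at chr5:90759360-90761624, all on the plus strand. Cxcl10 (ENSMUSG00000034855) lies at chr5:92346638-92348889 on the minus strand. The other 3 are on other chromosomes, Cxcl12 (ENSMUSG00000061353) at chr6:117168535-117181367 on the plus strand, Cxcl14 (ENSMUSG00000021508) at chr13:56288643-56296551 on the minus strand and Cxcl16 (ENSMUSG00000018920) at chr11:70453983-70459984 on the minus strand. Cxcl2 shared 7.59% of its 31-base words with Cxcl3, so some reads of that pair may not be separable, and the other members shared 0.871% or less. Cxcl10 overlaps Art3 and Cxcl16 overlaps Zmynd15 on the opposite strand.

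The sequence before the start site of 4 members is shown because their mRNA differed most between the conditions (Cxcl1, Cxcl2 and Cxcl10) or followed another pattern (Cxcl12). Each run holds 220 bases, from 250 to 31 bases before the RefSeq start (GRCm38.p6), 5′ to 3′ on the strand of the gene, and capitals mark every match on either strand to the NF-kB motif (GGG, any 3 bases, TTCC) or the interferon response core (GAAA, any 2 bases, GAAA). The windows are chr5:90890995-90891214 (plus) for Cxcl1, chr5:90903649-90903868 (plus) for Cxcl2, chr5:92348920-92349139 (minus) for Cxcl10 and chr6:117168285-117168504 (plus) for Cxcl12.
Cxcl1: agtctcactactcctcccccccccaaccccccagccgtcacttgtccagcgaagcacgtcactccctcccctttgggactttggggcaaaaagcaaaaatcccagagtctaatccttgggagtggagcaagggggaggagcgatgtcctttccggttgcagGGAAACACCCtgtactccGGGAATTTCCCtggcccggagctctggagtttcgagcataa
Cxcl2: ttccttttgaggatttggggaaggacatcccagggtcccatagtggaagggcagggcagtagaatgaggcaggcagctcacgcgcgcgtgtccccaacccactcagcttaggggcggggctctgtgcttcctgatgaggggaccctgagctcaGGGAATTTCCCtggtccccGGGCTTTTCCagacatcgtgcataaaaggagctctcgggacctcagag
Cxcl10: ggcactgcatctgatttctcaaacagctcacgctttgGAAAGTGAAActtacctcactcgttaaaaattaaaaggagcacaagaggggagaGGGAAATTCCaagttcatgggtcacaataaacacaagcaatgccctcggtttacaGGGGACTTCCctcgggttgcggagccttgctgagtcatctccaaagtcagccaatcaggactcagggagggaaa
Cxcl12: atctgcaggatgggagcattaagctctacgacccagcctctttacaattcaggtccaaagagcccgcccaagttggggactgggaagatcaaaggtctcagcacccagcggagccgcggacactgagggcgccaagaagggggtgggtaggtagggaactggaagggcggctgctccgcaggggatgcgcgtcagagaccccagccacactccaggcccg
The Cxcl1 and Cxcl2 windows each held 3 matches to the NF-kB motif, one pair of which overlapped, and no interferon match. The Cxcl10 window held 2 NF-kB matches and 1 interferon match, and the Cxcl12 window held neither. Of 32851 promoters of the same length in that RefSeq table, 3.84% held an NF-kB match and 2.63% an interferon match. The window of Cxcl14 held 1 interferon match. Of the 7 members 5 had an entry in the table, all but Cxcl5 and Cxcl16. A match describes letters in the window and is not shown to be bound.

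Sets of 4 values run in the order wildtype untreated, wildtype with TNF, Tnfr2-/- untreated, Tnfr2-/- with TNF, and the libraries are called wildtype TNF and Tnfr2-/- TNF for short. The libraries held between 980 and 2589 cells and between 44547639 and 87228093 UMIs (unique molecular identifiers, each counted once per captured molecule), with medians of 26293 to 39112 UMIs per cell. Epithelial classes held 1128, 1163, 1023 and 858 cells and mesenchymal classes 1430, 306, 90 and 122 cells, or 55.2%, 20.8%, 8.06% and 12.4% of a library. The summed mesenchymal markers (Pdgfra, Col1a1, Col1a2, Col3a1, Dcn, Vim and Acta2) ran from 9202 to 15086 CPM in mesenchyme and from 5.21 to 22.8 CPM in epithelium, and the summed epithelial markers (Epcam, Krt8, Krt18, Krt19, Cdh1 and Vil1) from 10684 to 13560 CPM in epithelium and 131 to 775 CPM in mesenchyme. CPM is the number of the gene's UMIs per 1000000 UMIs of the same cells. Only 3 cell barcodes occurred in more than 1 library. Tnfrsf1b was still counted in the knockout libraries, at 4.17, 12.1, 1.82 and 6.89 CPM in epithelium. The sources used here do not say which part of the transcript the allele lacks, and tags at the 3′ end outside that part would not check the deletion. By qPCR, the paper reports Tnfr2 as entirely absent in knockout organoids.

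The makeup of both compartments moved with the groups. Progenitor.2 held 5.5%, 23.5%, 22.8% and 83.4% of epithelial cells and Progenitor.1 48.4%, 28.8%, 63.2% and 11.1%. Mesenchyme-Ptges, a mesenchymal class named for a prostaglandin synthase gene, held 2.38%, 99.3%, 41.1% and 100% of mesenchymal cells, and Mesenchyme-Ifitm1 held 892 cells in wildtype untreated and at most 1 in any other library. Absorptive cells numbered 319, 19, 11 and 1, and Secretory-Reg4-Ang4 cells were found in wildtype TNF alone (246 cells, median 1957.5 UMIs). Levels over a whole compartment therefore mix class makeup with levels inside classes, and both are given below for each member. The deposited classes were clustered on all genes, these 7 included, so levels between classes are a description.

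Mesenchyme carried more Cxcl1, Cxcl5, Cxcl10 and Cxcl12 (as CPM) than epithelium in every library, and Cxcl12 was nearly confined to it. Cxcl2 was lower in mesenchyme than in epithelium in wildtype untreated and higher in the other 3 libraries, and Cxcl16 was of like level in both compartments. Of the UMIs of both compartments together, mesenchyme held 99.8%, 99.6%, 97.1% and 100% for Cxcl12, 96.6%, 82.7%, 63.9% and 85.7% for Cxcl5, and 45.1%, 23.8%, 5.65% and 10% for Cxcl16.

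**Figure D1:**
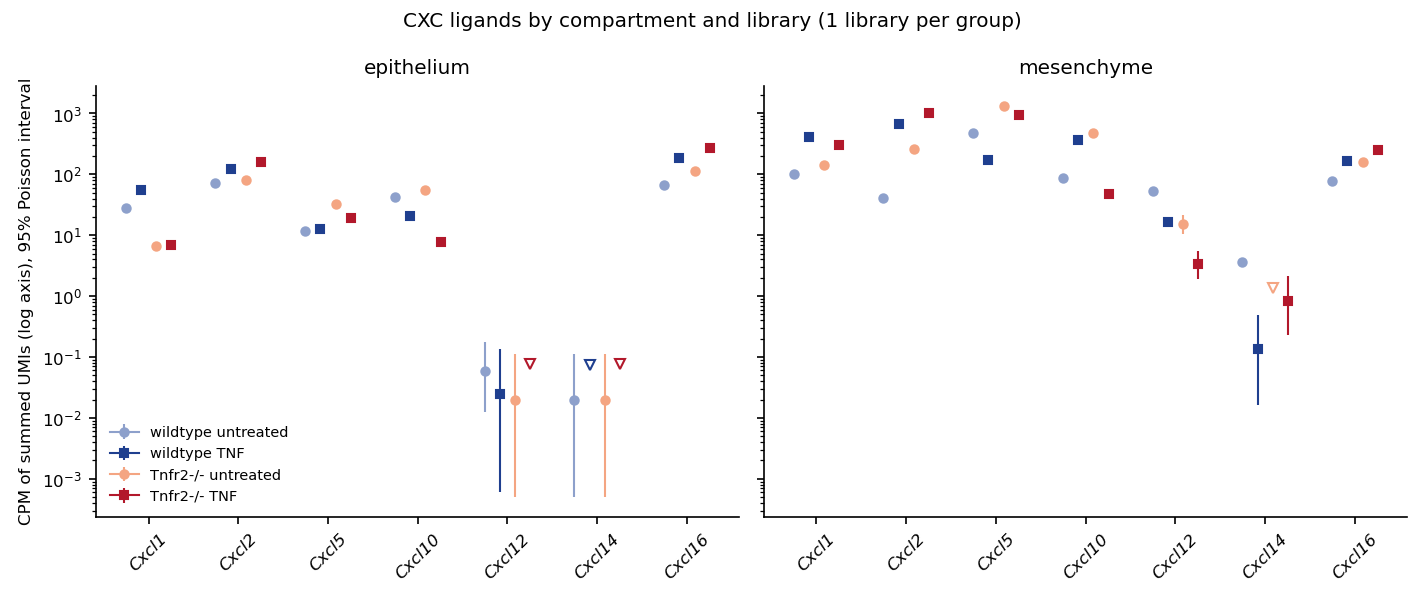
CPM of summed UMIs of each CXC chemokine (log axis) in epithelium and mesenchyme, 1 point per library, with bars for the 95% Poisson counting interval and hollow triangles at the limit of 3 counts where a library held 0 UMIs. Cxcl1 in epithelium sits at 28.5 and 54.5 CPM in the wildtype libraries and at 6.54 and 6.96 CPM in the Tnfr2-/- libraries, and Cxcl12 and Cxcl14 are near the counting limit in epithelium.

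A member was called where its level differed by at least 2-fold on the log2(CPM + 1) scale and its mean over the 4 libraries of the compartment was at least 5 CPM. Cxcl12 and Cxcl14 did not reach that mean in epithelium, nor Cxcl14 in mesenchyme. In epithelium, TNF minus untreated called 2 of the 7 in wildtype (Cxcl16 higher, Cxcl10 lower), where 3.4% of all genes tested were called. The same 2 were called in Tnfr2-/- in the same directions, where 12.6% of genes were called. Tnfr2-/- minus wildtype called 2 untreated (Cxcl5 higher, Cxcl1 lower; 6.3% of genes) and 2 with TNF (Cxcl1 and Cxcl10 lower; 11.1% of genes).

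In mesenchyme, TNF minus untreated called 6 of the 7 in wildtype, with Cxcl1, Cxcl2, Cxcl10 and Cxcl16 higher and Cxcl5 and Cxcl12 lower, beside 12.5% of all genes tested. In Tnfr2-/- it called 4 (Cxcl1 and Cxcl2 higher, Cxcl10 and Cxcl12 lower; 13.1% of genes). Tnfr2-/- minus wildtype called 5 untreated, with Cxcl2, Cxcl5, Cxcl10 and Cxcl16 higher and Cxcl12 lower (8.29% of genes). With TNF it called 3 (Cxcl5 higher, Cxcl10 and Cxcl12 lower; 14.8% of genes). These counts were not tested against those of all genes. The median difference over the 5 epithelial members past the minimum was 0.77, 0.08, 0.37 and 0.36 in the order of the comparisons above, beside 0.06, -0.15, 0.14 and -0.13 over all genes tested. Over the 6 mesenchymal members it was 1.56, 0.06, 1.27 and 0.07, beside -0.01, -0.13, -0.07 and -0.19.

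**Figure D2:**
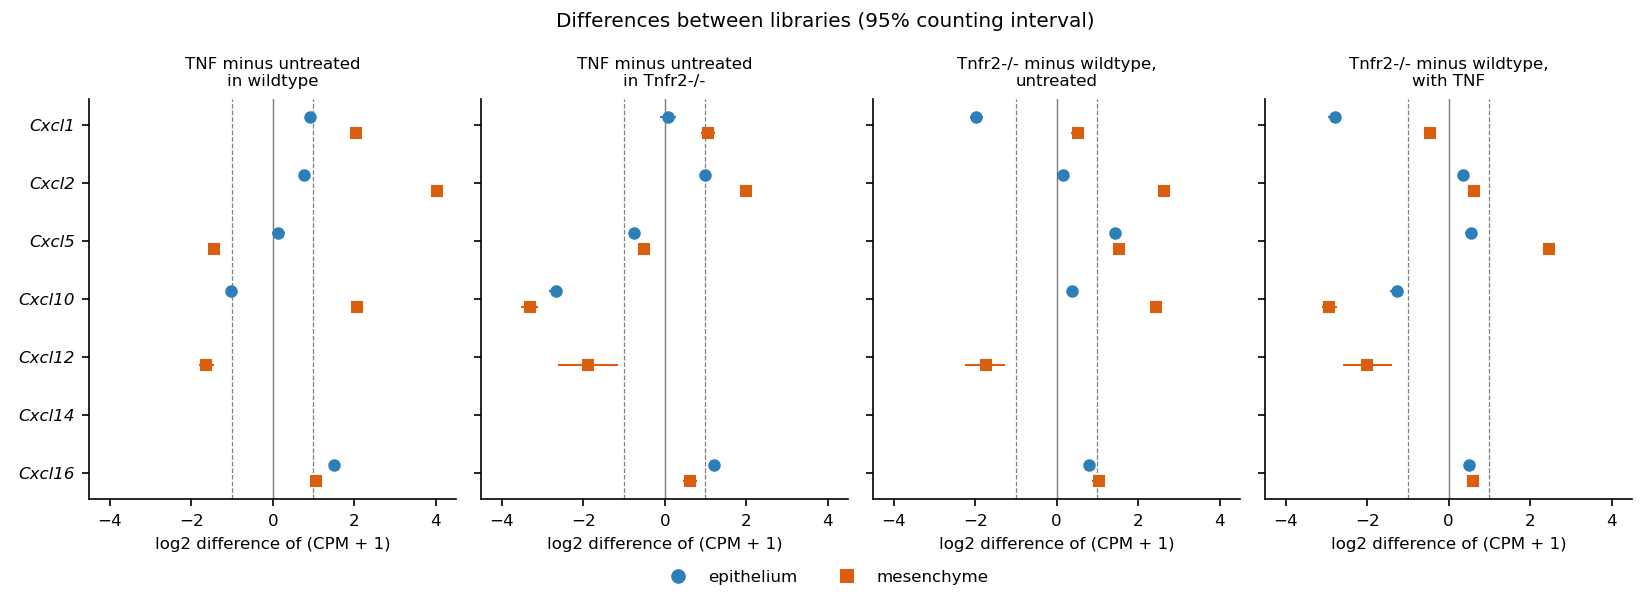
Log2 difference of (CPM + 1) between libraries for each member, 1 panel per comparison, with epithelium and mesenchyme drawn separately and bars for the 95% counting interval. Cxcl10 in mesenchyme lies at 2.06 for TNF in wildtype and at -3.31 for TNF in Tnfr2-/-, and Cxcl1 in epithelium at -1.97 and -2.80 for the genotype comparisons.

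Cxcl1, a neutrophil attractant and early NF-kB target, was the member most clearly lower in Tnfr2-/- epithelium. Its epithelial level was 28.5 CPM (27.1 to 30), 54.5 CPM (52.3 to 56.8), 6.54 CPM (5.85 to 7.28) and 6.96 CPM (6.17 to 7.83). Both knockout libraries lay below both wildtype libraries with no overlap of the counting intervals, 4.37-fold lower untreated and 7.82-fold lower with TNF. TNF went with a 1.91-fold higher level in wildtype, short of the 2-fold mark, and the intervals of the knockout pair overlapped (1.07-fold).

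The lower epithelial Cxcl1 of the knockout was also present inside both large progenitor classes. Progenitor.1 held 21.5, 60.2, 6.64 and 0.39 CPM, the last from 2 UMIs in 95 cells, and Progenitor.2 held 33.4, 68.2, 6.76 and 8.15 CPM. Within Progenitor.2 the knockout was 4.93-fold lower untreated and 8.37-fold lower with TNF, and within Progenitor.1 it was 3.24-fold lower untreated. With TNF the difference within Progenitor.1 was -5.46 on the log2 scale with a counting interval of -5.88 to -4.66. In wildtype untreated the other epithelial classes held 43.1 CPM (Absorptive) and 30.3 CPM (Secretory-Reg4-Spdef-Lyz1), with Progenitor.3 at 4.77 CPM and Enteroendocrine cells at 1.52 CPM from 1 UMI. The knockout signal came from few cells, since 50% of epithelial Cxcl1 UMIs lay in 30, 36, 8 and 4 cells. Without the single cell holding most of it in each library, the difference was -2.10 untreated and -3.06 with TNF.

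In mesenchyme Cxcl1 did not separate by genotype. Its level was 101 CPM (97.3 to 104), 417 CPM (407 to 428), 145 CPM (129 to 162) and 303 CPM (288 to 319), so that both TNF libraries lay above both untreated libraries. TNF went with 4.15-fold more in wildtype and 2.09-fold more in Tnfr2-/-, and the genotype differences were 0.52 untreated and -0.46 with TNF on the log2 scale. Within Mesenchyme-Ptges, the class shared by all 4 libraries, Cxcl1 stood at 126, 419, 209 and 303 CPM. There the TNF difference in the knockout was 1.45-fold and was no longer called, while that in wildtype was 3.34-fold. The remaining mesenchymal classes of wildtype untreated held 128 CPM (Mesenchyme-generic), 95.3 CPM (Mesenchyme-Ifitm1) and 66.1 CPM (Mesenchyme-proliferative), and the counting intervals of the first and Mesenchyme-Ptges overlapped.

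Cxcl2, a ligand of Cxcr2 like Cxcl1, differed little by genotype over all epithelium. The epithelial levels were 72.8, 124, 80.9 and 160 CPM, with the TNF libraries above the untreated ones in both genotypes by 1.71-fold and 1.98-fold. Neither was called, and both turned direction with the shared classes weighted equally (log2 differences -0.22 in wildtype and -0.32 in the knockout). The knockout value passed 2-fold under TMM factors (1.14), median-of-ratios factors (1.15), the mean over cells (1.3), thinning (1.29) and without the richest cell (1.06). The genotype differences were 0.15 and 0.36 on the log2 scale, and -0.5 each with classes weighted equally, all short of 2-fold. Over all epithelium Cxcl2 thus did not share the lower knockout level of Cxcl1. Within Progenitor.1 with TNF it was called lower in the knockout, at 34.9 against 137 CPM (3.92-fold). Untreated, that class held 50.3 CPM in the knockout and 51.8 CPM in wildtype, with overlapping intervals.

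Within epithelium Cxcl2 was highest in Progenitor.2 in all 4 libraries, at 308, 171, 222 and 183 CPM, against 51.8, 137, 50.3 and 34.9 CPM in Progenitor.1. The wildtype untreated value of Progenitor.2 rested on 62 cells, of which 1 held 331 of 517 UMIs (64%), and it was 115 CPM without that cell. Progenitor.1 was 2.64-fold higher with TNF in wildtype and 1.44-fold lower in the knockout, and Progenitor.2 was 1.8-fold and 1.21-fold lower with TNF. Without the richest cell of each library, wildtype Progenitor.2 stood at 115 CPM untreated and 153 CPM with TNF, so its direction turned. Knockout Progenitor.2 then stood at 176 and 171 CPM. Absorptive cells of wildtype untreated held 99.3 CPM.

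The mesenchymal Cxcl2 level spanned the widest range of any member past the minimum. It was 40.2 CPM (38.1 to 42.3), 672 CPM (659 to 685), 256 CPM (235 to 278) and 1024 CPM (995 to 1053). TNF went with 16.7-fold more in wildtype and 4-fold more in Tnfr2-/-, and the untreated knockout was 6.37-fold above the untreated wildtype. Mesenchyme-Ptges alone held 70.1, 676, 590 and 1024 CPM, which is 9.65-fold more with TNF in wildtype and 1.74-fold more in the knockout, where the call ended. The untreated knockout value rested on 37 cells of that class, with 50% of the UMIs in 2 cells. Mesenchyme-generic, by contrast, held 37.4 CPM in wildtype untreated and 50.4 CPM in Tnfr2-/- untreated, with overlapping intervals.

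Cxcl5, the third Cxcr2 ligand, was called higher in the knockout in mesenchyme with and without TNF and in untreated epithelium. Mesenchyme held 471 CPM (463 to 478), 173 CPM (166 to 180), 1348 CPM (1300 to 1398) and 952 CPM (925 to 980). Both knockout libraries lay above both wildtype libraries, by 2.86-fold untreated and 5.51-fold with TNF. In wildtype TNF went with a 2.72-fold lower level, and in Tnfr2-/- with one 1.42-fold lower. Mesenchyme-Ptges gave 423, 173, 1146 and 952 CPM, in the same order of libraries, and Mesenchyme-generic gave 357 CPM in wildtype untreated and 1432 CPM in Tnfr2-/- untreated. Mesenchyme-Ifitm1 of wildtype untreated held 596 CPM, the highest of that library, and Mesenchyme-proliferative 76.5 CPM.

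Epithelial Cxcl5 was 11.6, 12.8, 32.8 and 19.1 CPM. The untreated knockout was 2.83-fold above the untreated wildtype, the knockout with TNF was 1.49-fold above wildtype and not called, and the 2 wildtype intervals overlapped. In Progenitor.2 the levels were 30.4, 13.1, 71.4 and 13.8 CPM, and in Progenitor.1 they were 11, 14.9, 24.5 and 55.6 CPM, so the highest library differed between the 2 classes. With TNF the genotypes overlapped in Progenitor.2. Single cells held much of both maxima, 32.3% of the UMIs in Progenitor.2 of Tnfr2-/- untreated and 38.2% in Progenitor.1 of Tnfr2-/- TNF, which stood at 48.5 and 34.7 CPM without them.

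**Figure D3:**
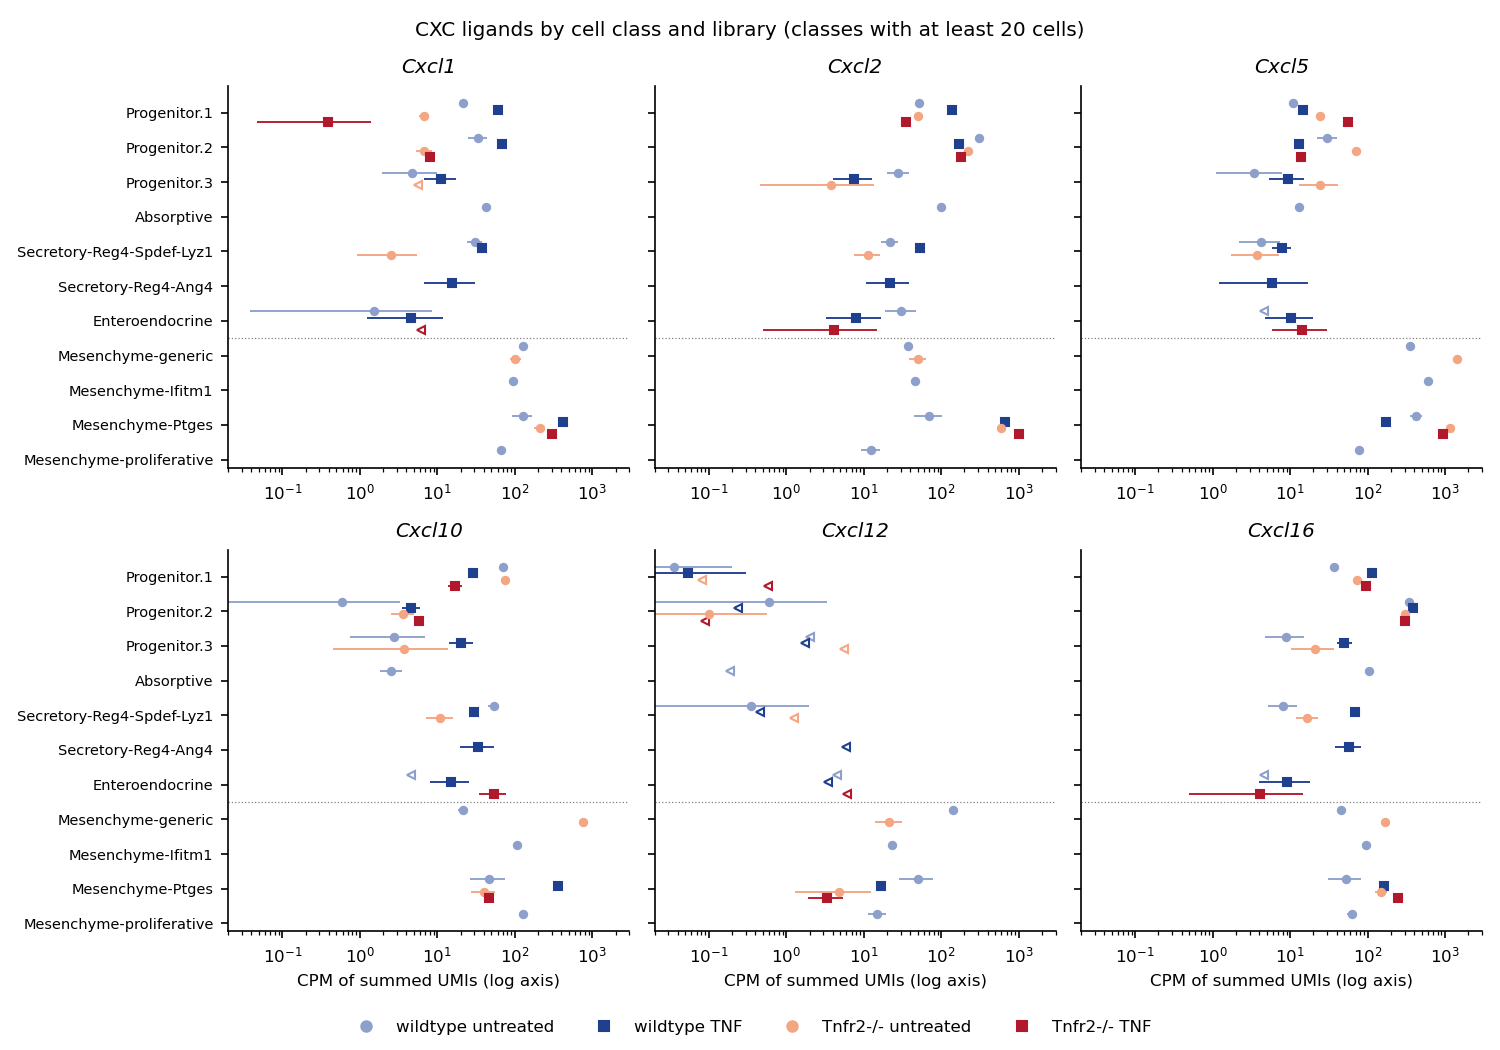
CPM of summed UMIs (log axis) of 6 members in each deposited class with at least 20 cells in a library, 1 point per library, with 95% Poisson intervals cut at the left edge of the axis and hollow triangles where 0 UMIs were counted. Cxcl16 in Progenitor.2 stays between 300 and 382 CPM in the 4 libraries, and Cxcl10 in Mesenchyme-generic stands at 753 CPM in Tnfr2-/- untreated against 21.4 CPM in wildtype untreated.

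Cxcl10, the interferon-induced ligand of Cxcr3, was higher with TNF in wildtype mesenchyme and lower with TNF in knockout mesenchyme. The mesenchymal levels were 86.8 CPM (83.7 to 89.9), 364 CPM (354 to 374), 475 CPM (446 to 504) and 46.9 CPM (41 to 53.5). That is 4.2-fold more with TNF in wildtype and 10.1-fold less in Tnfr2-/-, while the knockout was 5.47-fold above wildtype untreated and 7.76-fold below it with TNF. None of the 4 counting intervals overlapped.

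The high value of the untreated knockout lay in Mesenchyme-generic, a class of 51 cells there and of 0 cells in Tnfr2-/- TNF. Mesenchyme-generic held 753 CPM (707 to 802) in Tnfr2-/- untreated and 21.4 CPM (18.5 to 24.6) in wildtype untreated, a 35.2-fold difference. After thinning every cell to 5000 UMIs, 39.2% of those 51 knockout cells and 5.87% of 392 wildtype cells had a Cxcl10 UMI, and 4 knockout cells held 50% of the UMIs. In Mesenchyme-Ptges the levels were 46.7, 366, 39.6 and 46.9 CPM, so the TNF difference was 7.84-fold in wildtype while the knockout pair overlapped (1.18-fold, log2 difference 0.24). The lower knockout level with TNF over all mesenchyme thus cannot be told apart from the loss of that class. In wildtype untreated, Mesenchyme-Ifitm1 held 107 CPM and Mesenchyme-proliferative 128 CPM, of which 1 cell held 62.8% (48.1 CPM without it).

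Summed over all epithelium, Cxcl10 was lower with TNF in both genotypes. The levels were 42.6 CPM (40.8 to 44.4), 20.4 CPM (19 to 21.8), 55.2 CPM (53.2 to 57.3) and 7.82 CPM (6.97 to 8.74), 2.09-fold lower with TNF in wildtype and 7.06-fold lower in Tnfr2-/-. The wildtype difference stood near the mark and fell short of it without the single cell holding most Cxcl10 UMIs in each library (-0.88 against -1.03 on the log2 scale). With the shared classes weighted equally the difference was -0.35 in wildtype and -1.69 in the knockout. Progenitor.1 held 70.3, 28.6, 74.2 and 17 CPM, 2.46-fold and 4.37-fold lower with TNF, and most of the UMIs in the first 3 libraries. Progenitor.2 held only 0.596, 4.57, 3.63 and 5.87 CPM, and supplied 198 of the 311 UMIs in Tnfr2-/- TNF. Its share of epithelial cells was largest where epithelial Cxcl10 was lowest. In wildtype, Progenitor.3 held 2.73 CPM untreated and 20.5 CPM with TNF (4 and 35 UMIs). Enteroendocrine cells of wildtype held 0 UMIs untreated and 13 with TNF. Other epithelial classes with Cxcl10 were Secretory-Reg4-Spdef-Lyz1 (53.9, 30.2 and 10.9 CPM in the first 3 libraries), Secretory-Reg4-Ang4 of wildtype TNF (33.4 CPM) and Enteroendocrine cells of Tnfr2-/- TNF (53.3 CPM from 26 UMIs in 27 cells). Between genotypes the whole epithelium differed by 0.37 untreated and -1.28 with TNF on the log2 scale, and the latter became 0.63 when the 3 classes with at least 20 cells in both libraries were weighted equally, one of them the 27 and 31 Enteroendocrine cells.

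**Figure D4:**
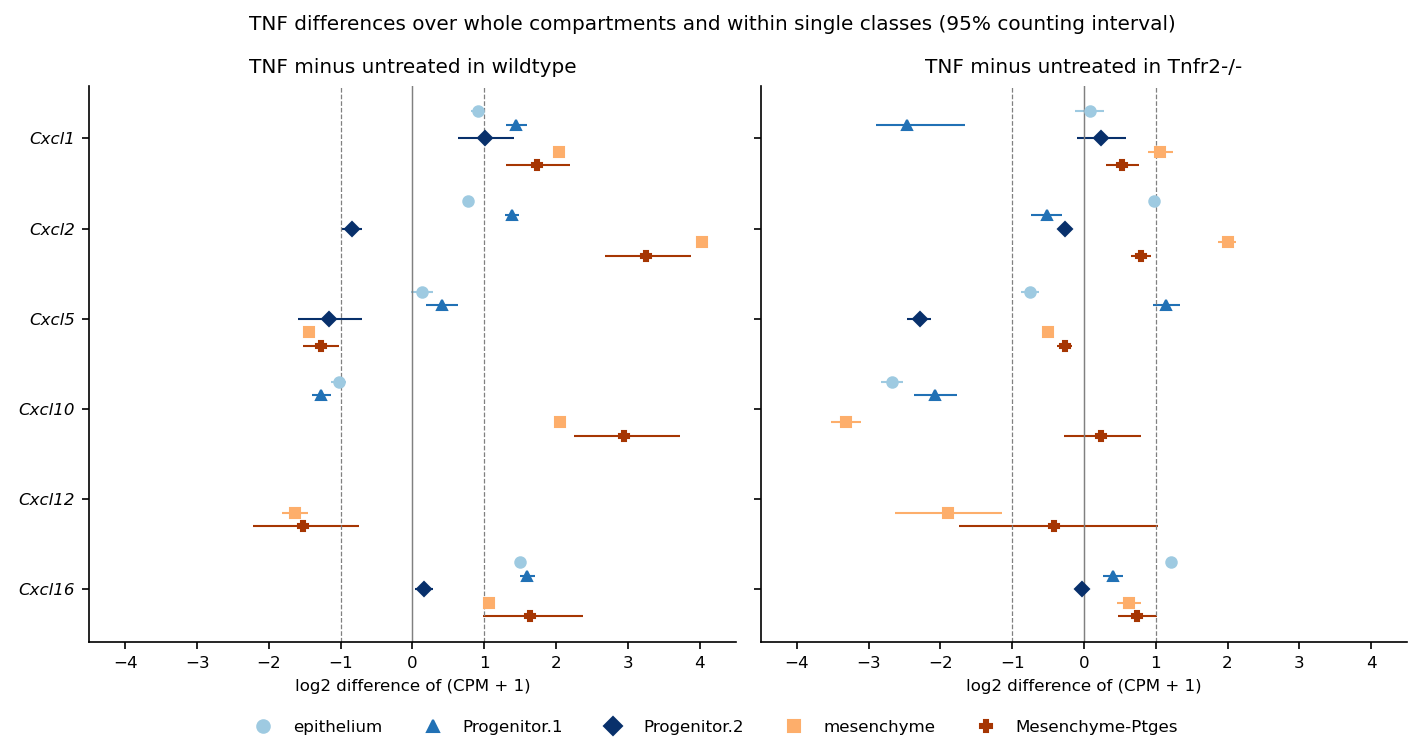
Log2 difference of (CPM + 1), TNF minus untreated, in wildtype and in Tnfr2-/-, for each member over the whole compartment and within Progenitor.1, Progenitor.2 and Mesenchyme-Ptges, with 95% counting intervals. Cxcl10 in Tnfr2-/- lies at -3.31 over all mesenchyme and at 0.24 in Mesenchyme-Ptges, and Cxcl16 in Progenitor.2 lies at 0.16 and -0.03.

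Cxcl12, the stromal ligand of Cxcr4 and Ackr3, was counted almost only in mesenchyme and was called lower in all 4 comparisons there. Epithelium held 3, 1, 1 and 0 UMIs of Cxcl12 among 39776200 to 50648198 UMIs. Mesenchyme held 52.9 CPM (50.5 to 55.3), 16.4 CPM (14.4 to 18.6), 15.2 CPM (10.4 to 21.3) and 3.35 CPM (1.92 to 5.45). Wildtype untreated lay above the other 3 libraries, Tnfr2-/- TNF lay below them, and wildtype TNF and Tnfr2-/- untreated overlapped. TNF went with a 3.23-fold and a 4.52-fold lower level, and the knockout was 3.49-fold and 4.89-fold below wildtype. The 2 knockout values rest on 33 and 16 UMIs. With every cell thinned to the same depth, the TNF difference in the knockout was -0.83 and the genotype difference with TNF -0.46 on the log2 scale, neither past the mark.

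Mesenchyme-generic held the most Cxcl12, 141 CPM in wildtype untreated and 21.4 CPM in Tnfr2-/- untreated, a 6.6-fold difference. Mesenchyme-Ptges held 49.6, 16.5, 4.8 and 3.35 CPM, from 17, 241, 4 and 16 UMIs. Inside this class wildtype was 10.3-fold above the knockout untreated and 4.92-fold with TNF, and TNF went with 3.01-fold less in wildtype. The untreated fold rests on few UMIs, with counting intervals of 28.9 to 79.5 CPM in wildtype and 1.31 to 12.3 CPM in the knockout. In the knockout the TNF difference inside the class was -0.41 with overlapping intervals. Mesenchyme-Ifitm1, 23.2 CPM, and Mesenchyme-proliferative, 15 CPM, were lower than both other classes of wildtype untreated.

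Cxcl14 was rare everywhere. Mesenchyme held 125, 2, 0 and 4 UMIs, and epithelium 1, 0, 1 and 0. Of the 125 UMIs, 97 were in Mesenchyme-Ifitm1 (4.55 CPM) and 26 in Mesenchyme-proliferative (6.27 CPM), whose intervals overlapped, and 1 was in the 393 cells of Mesenchyme-generic. Those 2 classes held at most 1 cell each in the other libraries, so the lower Cxcl14 count there cannot be told apart from the absence of the classes. The 0 of Tnfr2-/- untreated allows up to 1.38 CPM.

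Cxcl16, the membrane-bound ligand of Cxcr6, was the member spread over most cells, by the number of cells that held 50% of its UMIs in each compartment and library. Epithelium held 65.7 CPM (63.5 to 68), 188 CPM (184 to 192), 115 CPM (112 to 118) and 268 CPM (263 to 273). TNF went with 2.86-fold more in wildtype and 2.33-fold more in Tnfr2-/-, and the knockout lay above wildtype by 1.76-fold and 1.43-fold. The 4 libraries were fully separated in counting error.

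The epithelial order of Cxcl16 was that of the share of Progenitor.2 cells. The shares of wildtype TNF and Tnfr2-/- untreated were close, however, at 23.5% and 22.8%, while the levels were 188 and 115 CPM. The part of class makeup in this order was not tested. Progenitor.2 held 341, 382, 307 and 300 CPM, and within it TNF went with 1.12-fold more in wildtype and overlapping intervals in the knockout. Progenitor.1 held 36.9, 114, 72.3 and 96.3 CPM, with TNF differences of 3.09-fold and 1.33-fold. Progenitor.3 held 8.86, 50.3 and 20.7 CPM in its first 3 libraries and Absorptive cells of wildtype untreated 105 CPM. Secretory-Reg4-Spdef-Lyz1 held 8.1, 68.2 and 16.7 CPM in the first 3 libraries. With the shared classes weighted equally the TNF difference over epithelium was 0.65 in wildtype and 0.06 in Tnfr2-/- on the log2 scale, against 1.5 and 1.21 over all epithelial cells. The genotype difference was then 0.08 untreated and -0.33 with TNF, against 0.8 and 0.51, and with TNF the knockout was the lower one inside both Progenitor.1 and Progenitor.2.

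Mesenchymal Cxcl16 was 78.2, 165, 161 and 249 CPM, lowest in wildtype untreated and highest in Tnfr2-/- TNF, with wildtype TNF and Tnfr2-/- untreated overlapping between them. Both the TNF difference in wildtype (2.11-fold) and the untreated genotype difference (2.06-fold) stood just past the mark, and the second was 0.99 on the log2 scale without the cell holding most of the UMIs. In that order they were 0.89 and 0.91 after thinning and 0.99 and 0.95 with a pseudocount of 10 CPM, short of the mark. With classes weighted equally they were 1.64 and 1.69. Mesenchyme-Ptges gave 52.5, 165, 149 and 249 CPM, and Mesenchyme-generic 44.8 CPM in wildtype untreated against 169 CPM in Tnfr2-/- untreated.

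Counted inside single classes, 5 of the 7 members passed the minimum in Progenitor.1, 4 in Progenitor.2 and 6 in Mesenchyme-Ptges. In Progenitor.1, 4, 3, 2 and 3 members were called for TNF in wildtype, TNF in Tnfr2-/-, genotype untreated and genotype with TNF. There 2.6%, 2.19%, 2.81% and 3.67% of the genes past the minimum were called. Of the 3 called for TNF in Tnfr2-/-, Cxcl1 (lower) had 2 UMIs with TNF, and 1 cell held 38.2% of the Cxcl5 UMIs (higher) with TNF. In Progenitor.2 the counts were 2, 1, 2 and 1, beside 8.18%, 2.06%, 9.37% and 7.28% of genes. Mesenchyme-Ptges gave 6, 0, 4 and 3 members, beside 26.5%, 11.3%, 27.5% and 14.9% of genes. In that class the wildtype untreated library had 34 cells with a median of 5755 UMIs, against medians of 48633, 21965 and 37644.5 UMIs in the other libraries, and the part of depth in these differences was not tested.

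Thinning each cell to 5000 UMIs left out 43, 290, 33 and 12 shallower epithelial cells. In wildtype TNF the 246 Secretory-Reg4-Ang4 cells had a median of 1957.5 UMIs, so the thinned set there differs in class makeup. After thinning, the share of epithelial cells with a Cxcl1 UMI was 7.65%, 11.8%, 1.72% and 1.65% (19.6%, 24%, 5.96% and 3.85% unthinned), in the same order of genotypes as the levels. For Cxcl16 it was 22.3%, 48%, 32.8% and 58% in epithelium (54.5%, 65.7%, 70.8% and 90.8% unthinned) and 31%, 49.7%, 51.2% and 69.2% in mesenchyme (72%, 94.8%, 88.9% and 95.9%). Cxcl10-positive epithelial cells made up 4.88%, 6.99%, 6.06% and 2.13% (11.9%, 17%, 16.3% and 7.11%), so in wildtype the share was higher with TNF, with overlapping intervals after thinning, while the level was lower. In mesenchyme Cxcl2 was found in 9.17%, 50.3%, 15.1% and 60.8% of cells (17.4%, 66%, 26.7% and 83.6%), Cxcl5 in 47.3%, 19.1%, 69.8% and 55% (62%, 35%, 83.3% and 70.5%) and Cxcl10 in 10.1%, 40.3%, 27.9% and 11.7% (18.9%, 58.2%, 43.3% and 24.6%). For Cxcl2 and Cxcl5 these orders were those of the levels, whereas Cxcl10 had its largest share in wildtype TNF and its highest level in Tnfr2-/- untreated. Epithelium served as the type that lacks Cxcl12. There 0 of 1085, 0 of 873, 1 of 990 and 0 of 846 cells had a UMI, against 16.3%, 5.03%, 8.14% and 4.17% of mesenchymal cells, and the first of these zeros allows a share of up to 0.276% of cells with a UMI at this depth, which does not bound the share of cells expressing the gene. The median depths of the same cells before thinning were 38088, 39264, 41979 and 37676.5 UMIs in epithelium and 22705, 49146, 24799 and 37666 UMIs in mesenchyme.

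**Figure D5:**
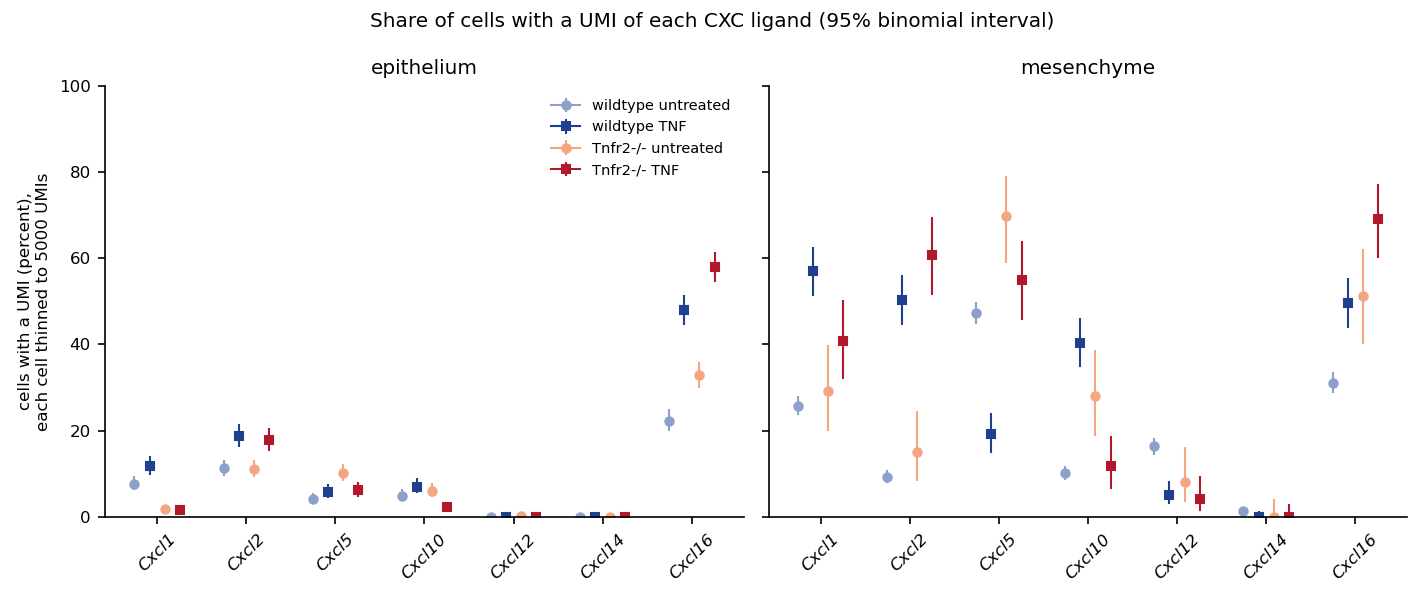
Percent of cells with at least 1 UMI of each member after every cell was thinned to 5000 UMIs, by compartment and library, with 95% Clopper-Pearson intervals. Cxcl16 is found in 22.3% to 58% of epithelial cells, and Cxcl12 in 4.17% to 16.3% of mesenchymal cells and at most 1 epithelial cell of a library.

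The members differed in how many cells made up a sum. In epithelium 50% of the Cxcl16 UMIs lay in 99, 113, 88 and 126 cells, whereas 50% of the Cxcl10 UMIs lay in 5, 20, 7 and 4 cells and 50% of the Cxcl2 UMIs in 31, 28, 15 and 16. In mesenchyme the numbers were 253, 74, 21 and 29 cells for Cxcl16 and 12, 17, 4 and 3 for Cxcl10. In each compartment of every library, Cxcl2 was counted in a larger share of the cells with Cxcl1 than of those without it, from 17.8% against 6.18% in wildtype untreated mesenchyme to 71.4% of 14 cells against 16.9% in Tnfr2-/- TNF epithelium. In Mesenchyme-Ptges of wildtype TNF the shares were 64.5% of 169 cells and 31.5%. Cxcl10 had no single direction against Cxcl2, since in Mesenchyme-Ptges it was counted in 31.5% of cells with Cxcl2 and 49.7% of those without in wildtype TNF, and in 15.1% and 6.38% in Tnfr2-/- TNF. These shares are across cells of 1 library each and are given as a description.

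The levels of the 7 members in epithelium were set beside the trace of mesenchymal markers there. Those 7 markers stood in epithelium at a median of 0.0852%, 0.282%, 0.0262% and 0.0735% of their mesenchymal level, and at most 0.317%. Cxcl12 stood in the same range, at 0.113%, 0.148%, 0.13% and 0%. Epithelial Cxcl5 was at 2.01% to 7.42% of the mesenchymal level, Cxcl1 at 2.3% to 28.4%, Cxcl10 at 5.6% to 49% and Cxcl2 at 15.7% to 181%, all above every marker. In the other direction the epithelial markers stood in mesenchyme at medians of 1.16%, 0.547%, 1.38% and 5.29% of their epithelial level, highest in Tnfr2-/- TNF. Of 9 immune markers, Ptprc had 0 UMIs in mesenchyme and at most 3 in the epithelium of a library. S100a8 stood at 0.159, 1.67, 72.3 and 217 CPM in epithelium and 16.1, 827, 246 and 611 CPM in mesenchyme. It made up most of the summed immune level in mesenchyme and in knockout epithelium. In wildtype epithelium, where the sums were 29.6 and 54 CPM, it did not. Other immune markers were called too. In mesenchyme Cd14 was called higher with TNF in both genotypes, and Cd68 with TNF in Tnfr2-/- and in the knockout with TNF. In epithelium Cd68 was called higher with TNF in Tnfr2-/- and in the knockout with TNF. No immune marker was called lower. The summed endothelial or glial markers did not pass 1.84 CPM. The part of these other markers in the member values was not tested.

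Other genes of the CXC system were mostly rare. Of 8 other listed CXC ligands 7 were in the gene table, and Pf4, a platelet chemokine, alone passed the minimum, in epithelium at 9.1, 13.8, 3.2 and 3.34 CPM, and was called lower in the knockout in both treatments. Cxcl3, the close relative of Cxcl2, stood at 1.25 to 3.07 CPM in epithelium, and Cxcl9, which like Cxcl10 binds Cxcr3, at 2.41, 4.49, 9.19 and 1.68 CPM in mesenchyme. None of the 8 listed receptors passed the minimum in epithelium. Cxcr3 and Cxcr6, the receptors of Cxcl10 and Cxcl16, had at most 1 UMI in either compartment of any library, and Cxcr2 had at most 10. In mesenchyme the Cxcl12 receptor Cxcr4 stood at 0.431, 1.97, 5.97 and 14.3 CPM and was called higher in all 4 comparisons, from 15, 29, 13 and 68 UMIs. Both wildtype levels lay under 5 CPM, and the gene passed the minimum only through the knockout libraries, so its TNF call in wildtype depends on them. Ackr3, which takes up Cxcl12, stood at 12.4, 22.4, 0.459 and 1.26 CPM, called lower in the knockout in both treatments. Adam10, a protease that sheds Cxcl16, was counted at 72, 94.6, 87.1 and 131 CPM in epithelium, and neither it nor Adam17 was called in any comparison.

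The NF-kB response list, 11 genes all measured past the minimum in epithelium, had 7 higher with TNF in wildtype epithelium (Tnfaip3, Birc3, Nfkb2, Relb, Icam1, Ccl2 and Ccl20), where 3.4% of all genes were called, and 1 in the knockout (Tnfaip3), where 12.6% were, with none lower. Tnfaip3, an inhibitor of NF-kB signaling, stood at 23.6, 58.9, 31.3 and 93 CPM. In the genotype comparisons 4 were higher untreated (Nfkb2, Icam1, Ccl2 and Ccl20; 6.3% of all genes) and none was called with TNF (11.1%), unlike Cxcl1, which was lower in both. In mesenchyme 10 of the 11 passed the minimum, with 3 higher with TNF in wildtype (Nfkb1, Nfkb2 and Ccl2; 12.5% of all genes), 1 higher with TNF in the knockout (Icam1; 13.1%), 1 higher in the untreated knockout (Ccl2; 8.29%) and 1 lower in the knockout with TNF (Ccl2; 14.8%). Ccl2, a monocyte attractant, stood there at 761, 9886, 1799 and 2555 CPM.

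The interferon response list holds 13 genes, of which 11 passed the minimum in epithelium and 13 in mesenchyme. In epithelium 2 were lower with TNF in wildtype (3.4% of all genes called in either direction) and 6 lower with TNF in the knockout (12.6%). A further 6 calls were higher in the untreated knockout (6.3%) and 2 higher in the knockout with TNF (Ifit1 and Rsad2; 11.1%). None went the other way in any of these. Cxcl10 was called lower in both TNF comparisons, was not called between untreated genotypes, and was called lower in the knockout with TNF, opposite to Ifit1 and Rsad2. In mesenchyme 1 was higher and 1 lower with TNF in wildtype (12.5% of all genes), and 9 were lower with TNF in the knockout (13.1%). Between genotypes 6 were higher in the untreated knockout (8.29%) and 3 lower in the knockout with TNF (14.8%). Cxcl10 was called in the direction of the last 3 of these counts. Ifit1, an interferon-induced RNA-binding protein, stood at 77.9, 51.9, 260 and 25.4 CPM in mesenchyme. Gbp2, an interferon-induced GTPase of the list, stood at 36.8, 88.1, 50.1 and 67.5 CPM in mesenchyme and was called higher with TNF in wildtype, as was Cxcl10.

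Across the 8 sums of mesenchymal classes with at least 20 cells, Cxcl1 and Cxcl2 moved most alike (Pearson r 0.94) and Cxcl12 and Cxcl16 most oppositely (-0.81). Across the 19 epithelial sums the closest pair was Cxcl2 and Cxcl16 (0.72). Among all genes reaching 20 CPM in at least 1 of the 27 sums, the profile nearest to Cxcl1 was that of Igf2bp2 (0.92), to Cxcl2 Kctd10 (0.88), to Cxcl5 Sept9 (0.92), to Cxcl10 Itga1 (0.82), to Cxcl12 Adam33 (0.97), to Cxcl14 Ednrb (0.94) and to Cxcl16 4930523C07Rik (0.90). Cxcl14 itself stayed under 20 CPM in all of these sums, with a highest level of 6.27 CPM. The sums share libraries, depth and class makeup, so these values only describe them.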

How the data were processed

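Single-cell RNA of 4 colonic organoid libraries was analysed from the deposited UMI count matrix. Per the study's methods, the authors made the UMI counts with Cell Ranger and worked in monocle3, where cells under 100 UMIs and mixed epithelial and mesenchymal doublets were dropped and Leiden clusters named. The submitters' processing notes name Cell Ranger 5.0.0 and mm10. The deposited cell table also holds the genotype, treatment and class of each cell, which were used as given. The lowest cell held 894 UMIs. The 35 of 6155 cells without a class entered no compartment.

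UMIs were summed per class or compartment and library and scaled to CPM. Differences are log2(CPM + 1) of the first library minus the second. A gene was called at 2-fold or more with a mean of at least 5 CPM over the 4 libraries. With 1 library per group no p-value was computed. Sums carry exact Poisson and shares exact Clopper-Pearson intervals (95%). A sum of 0 is given with the limit of 3 counts. Classes with under 20 cells in a library are given as UMIs only or left out. Thinning to 5000 UMIs left out 405 shallower cells, 290 of them in wildtype TNF epithelium. Scrublet called 42 doublets (0.682%), kept in the main values.

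The members and gene lists were chosen with earlier results of these data known. Named genes were the members, the listed ligands, receptors, proteases and called response genes, and the most correlated profiles. Differences and CPM were checked on simulated counts. Alternatives were pseudocounts of 0.1 and 10 CPM, a mean of 20 CPM or none, TMM (edgeR 4.0.16) and median-of-ratios factors, cells of at least 2000 UMIs, no doublets, the mean over cells, equal weights for classes and thinning. After seeing the data, leaving out Progenitor.3 and Secretory-Reg4-Ang4, and leaving out the cell richest in a member, were added. Tools were Python 3.11.15, numpy 2.4.6, pandas 2.3.3, scanpy 1.11.5 and R 4.3.3. Positions are from GENCODE M21.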

Additional observations from a re-analysis of the deposited data

Results flagged for a closer look

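Cxcl10 in mesenchyme differed by 2.06 (log2, TNF minus untreated) in wildtype and by -3.31 in Tnfr2-/-, in opposite directions. Its genotype difference there (Tnfr2-/- minus wildtype) was 2.44 untreated and -2.93 with TNF, also in opposite directions. In epithelium the genotype difference of Cxcl10 was 0.37 untreated and -1.28 with TNF. The TNF difference of Cxcl10 in wildtype was -1.03 in epithelium and so opposite in sign to the mesenchymal one. The genotype difference of Cxcl1 in mesenchyme was 0.52 untreated and -0.46 with TNF, both under 2-fold, and in untreated epithelium it was -1.97. Each value compares 1 library with 1 library, and none of these contrasts between differences was tested.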

How the results depend on the processing

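No paired analysis was possible because each group had 1 library, and leaving out a replicate would leave no group. Of the 26 calls in both compartments, all 26 kept their sign and size past 2-fold with a pseudocount of 0.1 CPM, TMM or median-of-ratios factors, cells of at least 2000 UMIs, or no doublets. Epithelial calls with TNF in wildtype went from 2 to 1 with a pseudocount of 10 CPM, with the mean over cells and without the richest cell, and to 0 with classes weighted equally. With TNF in Tnfr2-/- they went from 2 to 1 with equal classes, to 3 with TMM or median-of-ratios factors, the mean over cells or without the richest cell, and to 4 after thinning. Between genotypes they went from 2 to 1 with a pseudocount of 10 CPM in both treatments, and untreated also with a mean of 20 CPM. Mesenchymal calls with TNF in Tnfr2-/- went from 4 to 0 with equal classes, which leaves Mesenchyme-Ptges alone, and to 2 after thinning. The mesenchymal Cxcl16 calls for TNF in wildtype and for genotype untreated were lost after thinning and with a pseudocount of 10 CPM. With equal classes Cxcl10 turned from -1.28 to 0.63 in epithelium (genotype with TNF) and from -3.31 to 0.24 in mesenchyme (TNF in Tnfr2-/-). In all, 19 calls stayed past 2-fold with a pseudocount of 10 CPM, 24 with the mean over cells, 18 with equal classes, 21 after thinning and 24 without the richest cell. Beyond the construction of each alternative the cause was not tested. Total scaling placed the median gene between -0.19 and 0.14, and calls are relative to that total.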
